A study of Mus musculus with 8 samples.

Results

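RNA-seq libraries of mouse tumors, 8 in all, were divided by the RNA level of 13 hypoxia-response genes. The rest of the transcriptome was then described on both sides of that division. CPM is the count of a gene scaled to a common library size, here after TMM normalization. The grouping was chosen by measured values of these same libraries: the mean log2 CPM of Vegfa, Slc2a1, Ldha, Pgk1, Adm, Ankrd37, Bnip3, Egln3, Ndrg1, Pfkfb3, Hk2, Pdk1 and P4ha1 placed 5 of the 8 libraries (1, 2L, 2R, 5 and 6) on the high-score side and 3 (3, 4a and 4b) on the low-score side. All 8 libraries came from genetically induced mouse tumors of the genotype HprtCre; Ewsr1-loxP; Atf1-loxP, in which Cre carried at the Hprt locus recombines loxP sites in Ewsr1 and Atf1. None had received a drug, tumors were snap frozen when the primary tumor made the animal moribund, and RNA was sequenced after depletion of ribosomal RNA. The groups therefore share genotype and handling, and no treatment, time point or oxygen measurement separates them. The labels state neither age, sex, tumor site nor the cells in which Cre was active, and name no normal tissue. They do not say that libraries came from separate animals or separate tumors. The p-values therefore measure only the spread between libraries, which may be technical. The 8 titles carry 6 numbers, 4 on the high side and 2 on the low side. Libraries 4a and 4b share a number and were added together for the fit, which set 5 libraries against 2. Libraries 2L and 2R also share a number but entered the fit as 2 of the 5, so its SEs and p-values treat them as independent.

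Cells answer low oxygen through the hypoxia-inducible factors (HIF), pairs of an oxygen-sensitive alpha subunit (Hif1a or Epas1) and the stable partner Arnt. When oxygen is plentiful, prolyl hydroxylases of the Egln family mark the alpha subunit, the Vhl ubiquitin ligase removes it, and Hif1an blocks its contact with coactivators. When oxygen is short, HIF accumulates as protein and raises genes for glucose uptake, glycolysis, lactate export, vessel growth and mitophagy, many of them through the DNA core ACGTG or GCGTG. The Ewsr1-Atf1 fusion is the mouse counterpart of the fusion that characterizes clear cell sarcoma of soft tissue, a tumor with melanocytic features.

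Library 3 stood apart from the other 7 and also lay on the low-score side. It had the smallest total, 4817902 counts, against 7847571 to 19682149 in the others, and 17952 detected genes against 21350 to 24763. Structural noncoding RNA took 41.5% of the counts of library 3 (3.31% to 19.8% in the others) protein-coding mitochondrial genes took 18.7% (0.827% to 6.01%) and mitochondrial ribosomal RNA took 15.1% (0.877% to 24.7%), which left 24.7% for all other genes (58.7% to 94.8%). List medians below are given with and without library 3, and so are the log2 fold changes of some single genes. A log2 fold change given alone is from all libraries. Without library 3 the low side is 1 title number. Library 5 alone held Y-linked transcripts, with Ddx3y at 114 CPM against at most 1.55 CPM in the others.

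The score that set the groups was 5.87 in library 1, 5.17 in 2L, 5.74 in 2R, 5.61 in 5 and 5.80 in 6, and 4.49 in 3, 4.77 in 4a and 4.54 in 4b. The members nearest the division were 2L, the lowest on the high side, and 4a, the highest on the low side. With a stricter filter on low counts, which leaves 12 of the 13 genes, these 2 libraries were at 5.54 and 5.11. Of the 13 genes, 7 (Ldha, Pgk1, Adm, Bnip3, Egln3, Ndrg1 and Pdk1) were higher in every high-score library than in every low-score library, and 6 overlapped. Egln3, a HIF prolyl hydroxylase that HIF itself induces, was at 51.4, 26.5, 34.7, 43.9 and 52.3 CPM in libraries 1, 2L, 2R, 5 and 6 and at 6.87, 16.7 and 14.96 CPM in 3, 4a and 4b. Vegfa, the main secreted signal for vessel growth, overlapped widely, at 336, 104, 358, 175 and 136 CPM on the high side and 229.8, 176 and 274 CPM on the low side. Slc2a1, the glucose transporter GLUT1, was highest of all in library 3, at 99.3 CPM. P4ha1 overlapped as well, with library 4a at 244 CPM above libraries 1 and 2L at 195 and 148 CPM. The division thus followed genes such as Ldha, Bnip3 and Egln3 more evenly than Vegfa, Slc2a1, Hk2 or P4ha1. The names high-score and low-score are used below. These 13 genes are a description of the rule and were left out of every count that follows.

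**Figure D1:**
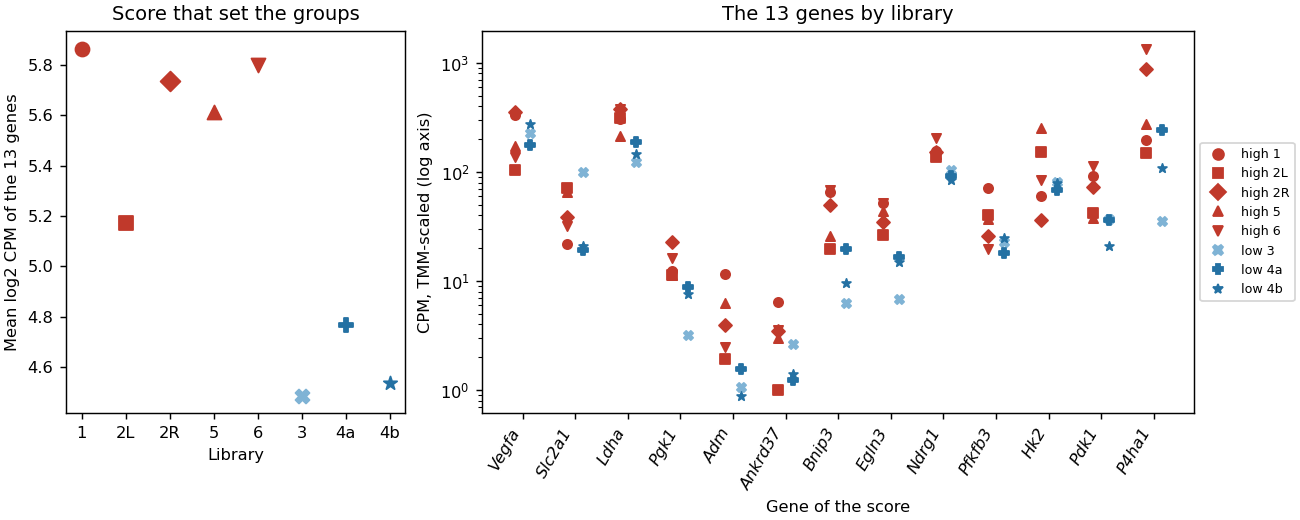
Left, mean log2 CPM of the 13 genes (y axis) in each library (x axis), from 4.49 in library 3 to 5.87 in library 1; right, the CPM of each of the 13 genes on a log axis, 1 point per library, red for the 5 high-score and blue for the 3 low-score libraries, with library 3 in pale blue. The 5 red points lie above the 3 blue ones for 7 of the 13 genes, and overlap them for the other 6, among them Vegfa, Slc2a1 and Hk2.

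Outside the 13 genes, 15175 genes were tested, and edgeR's quasi-likelihood test called 0 of them higher (0%) and 0 lower (0%) at an adjusted p of 0.05, the smallest adjusted p being 0.826. At an unadjusted p under 0.05 there were 183 genes on the higher side (1.21% of those tested) and 715 on the lower side (4.71%). DESeq2, run on the same summed libraries, called 6 higher and 15 lower. In all 15 of the latter, library 3 held the highest value of the 8 libraries. The 6 were Moxd1, Cox4i2, C3, Arg1, Ndufa4l2 and C1galt1. A plain comparison of the values found 281 genes whose 5 high-score libraries all lay above the 3 low-score ones (1.85% of genes tested) and 242 with the reverse order (1.59%). With library totals alone in place of TMM scaling these counts became 236 and 104, the unadjusted counts became 200 and 93, and the median gene shifted by 0.338 on the log2 scale. Library 3 was the lowest of all 8 libraries in 171 of the 281 genes and the highest of the low side in 162 of the 242. Without library 3, edgeR again called 0 genes, 83 (0.543% of 15284) and 102 (0.667%) had an unadjusted p under 0.05, and 933 (6.1%) and 1000 (6.54%) did not overlap, counts that grow because fewer libraries have to be separated. Every gene below is therefore given by its values, its log2 fold change (high minus low, ± SE of the fit) and whether its libraries overlap. For the 24 genes that lead the 2 directions the adjusted p was 0.826 in each case. The median log2 fold change of all genes was 0.07 (0.08 without library 3), against which list medians can be read, and 0.41 with library totals alone. Of all genes 55.5% were above 0 (57.8% without library 3), against which counts above or below 0 can be read. At the shares of 1.85% and 1.59%, a list of 46 genes, the longest described here, would on average hold fewer than 1 gene without overlap in either direction, so a count of 0 or 1 in a list says nothing about its members.

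The 12 genes that lead the higher side were Moxd1, Cox4i2, C3, Arg1, Ndufa4l2, Cystm1, Cyp26b1, C1galt1, Crip2, Slit3, Lgals3 and Hdac11 (genes with non-overlapping libraries, a mean of at least 5 CPM and the same direction without library 3). Moxd1 (chr10:24223517-24302790, mm10), a relative of the enzyme that makes noradrenaline and a gene known from neural crest, was at 668, 909, 1111, 425 and 891 CPM in libraries 1, 2L, 2R, 5 and 6 and at 107, 154 and 71.2 CPM in 3, 4a and 4b. Its log2 fold change was 2.80 ± 0.55 (2.69 ± 0.74 without library 3), or 6.95-fold. The lowest high-score library, 5, was still above the highest low-score library, 4a. DESeq2 gave Moxd1 an adjusted p of 9.45e-07, the smallest of any gene it called higher. 

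Both respiratory chain isoforms among the 12 are known HIF targets. Ndufa4l2 (chr10:127514967-127517154), a paralog of the respiratory chain subunit Ndufa4 that dampens complex I activity in low oxygen, was at 82.2, 22.9, 117, 45.8 and 81.2 CPM on the high side and 9.51, 14.7 and 7.03 CPM on the low side, a log2 fold change of 2.69 ± 0.67 (2.55 ± 0.96 without library 3). Cox4i2 (chr2:152754173-152765037), the oxygen-responsive isoform of cytochrome c oxidase subunit 4, was at 21.3, 13.8, 26.97, 38.7 and 16.2 CPM and 2.64, 5.25 and 6.22 CPM, a difference of 2.42 ± 0.56 (2.06 ± 0.67). The common isoform Cox4i1 overlapped, at 193, 185, 178, 183 and 346 CPM on the high side and 175, 307 and 168 CPM on the low side, a log2 fold change of 0.01 ± 0.39. Ndufa4 overlapped as well, with a difference of 0.99 ± 0.60. Both Cox4i2 and Ndufa4l2 are also expressed by pericytes. Of 13 pericyte and smooth muscle markers 9 were below 0, and their summed levels overlapped, at 349 to 1276 CPM on the high side against 518, 864 and 838 CPM in libraries 3, 4a and 4b. Rgs5, the marker of highest mean CPM, had a log2 fold change of 0.64 ± 0.72 (0.09 ± 0.87 without library 3). The part of pericytes in the Cox4i2 and Ndufa4l2 values was not tested.

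C3 (chr17:57203970-57228136), the central complement protein, was at 97.1, 168, 429, 146 and 198 CPM and 31.7, 40.1 and 21.4 CPM, a log2 fold change of 2.67 ± 0.65 (2.64 ± 0.94). Arg1 (chr10:24915221-24927484), arginase, an enzyme made by macrophages and other cells in hypoxic tumors, was at 93.2, 69.9, 131, 36.6 and 102 CPM and 16.9, 31.6 and 6.44 CPM, a difference of 2.13 ± 0.53 (1.94 ± 0.73). Lgals3 (chr14:47367751-47386160), the sugar-binding protein galectin-3, was at 134, 283, 224, 146 and 183 CPM and 43.8, 102 and 53.7 CPM, a difference of 1.59 ± 0.46 (1.20 ± 0.53). For Arg1 the margin was narrow, with library 5 just above 4a. Macrophages can make all 3 transcripts, and 17 of 18 macrophage markers also had fold changes above 0 (median 0.99), but none was free of overlap or at 0 in every library, the median was 0.29 without library 3, and the summed marker level was 1321 to 4761 CPM in the high-score libraries against 416, 2177 and 1263 CPM in 3, 4a and 4b. The part of macrophage content in these values was not tested. In bulk tissue, fewer cells of a type and less RNA per cell cannot be told apart.

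Among the other leaders, Slit3, a guidance ligand of the Robo receptors, was at 260.003, 116, 297, 83.3 and 276 CPM and 34.3, 55.2 and 38.5 CPM (2.30 ± 0.63, or 2.07 ± 0.88 without library 3). Cyp26b1, which degrades retinoic acid, was at 16.01, 31.6, 13.4, 30.9 and 11.6 CPM and 5.81, 2.95 and 1.93 CPM (2.40 ± 0.64, or 3.01 ± 0.81). C1galt1, which builds the core 1 O-glycan on proteins, had the smallest difference of the 12 and the tightest values, at 104, 101, 115, 102 and 111 CPM against 55.99, 58.96 and 50.6 CPM (0.93 ± 0.25). The deacetylase Hdac11 was at 18.3, 16.7, 13.6, 10.9 and 11.5 CPM against 6.87, 5.09 and 4.22 CPM (1.32 ± 0.38). Crip2 and Cystm1 had log2 fold changes of 1.33 ± 0.36 and 1.48 ± 0.38, which were 0.92 ± 0.32 and 1.12 ± 0.39 without library 3, their lowest library.

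**Figure D2:**
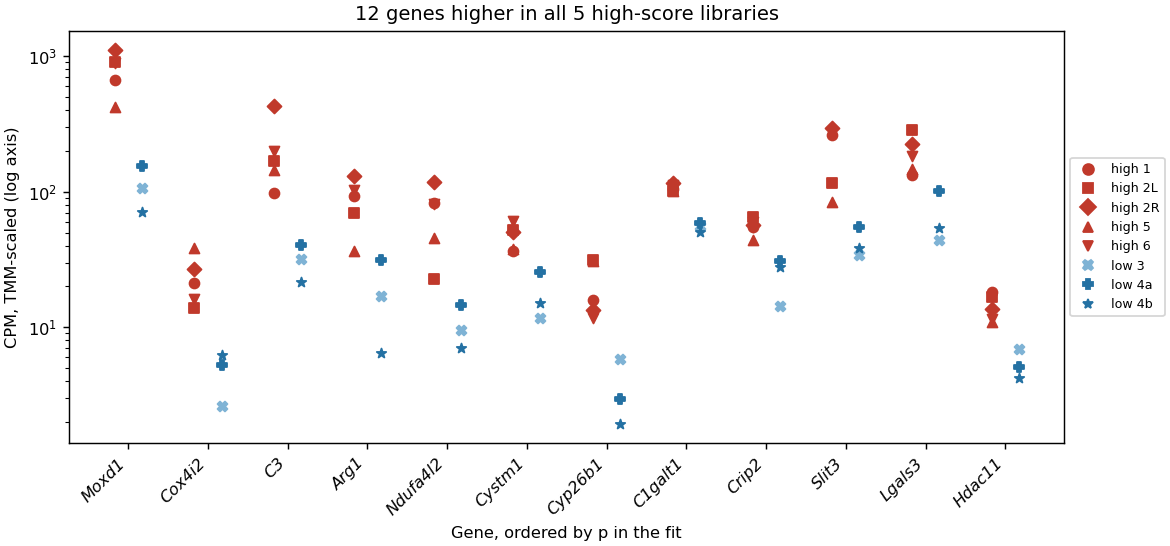
CPM on a log axis (y) of the 12 genes that lead the higher side (x, ordered by p), 1 point per library, red for the 5 high-score and blue for the 3 low-score libraries. For each gene all red points lie above all blue points, as the choice of these genes requires; Moxd1 reaches 1111 CPM in 2R and C1galt1 has the tightest clusters.

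The HIF targets outside the 13 genes were described as a list of 46, all of which passed the filter of a mean of 1 CPM. They share their known control with the genes that set the groups, so their direction is no independent support for the division. Their median log2 fold change was 0.67 (0.57 without library 3), 38 of 46 were above 0, edgeR called 0, and 5 did not overlap (Cox4i2, Ndufa4l2, Slc16a3, Gbe1 and Zfp292). That is 5 of 46 against 1.85% of all genes, and without library 3 it was 12 higher and 3 lower against 6.1% and 6.54%. Their mean log2 CPM was 4.72 to 5.19 in the high-score libraries and 3.95, 4.45 and 4.26 in libraries 3, 4a and 4b, with library 5 the highest. Slc16a3, the lactate exporter MCT4, was at 59.8, 56.5, 95.9, 46.2 and 106 CPM on the high side and 33.8, 21.7 and 10.1 CPM on the low side (1.52 ± 0.47, or 2.06 ± 0.60 without library 3). Gbe1, the glycogen branching enzyme, was at 60.4, 23.7, 30.2, 19.2 and 32.7 CPM against 11.1, 16.5 and 12.7 CPM (1.33 ± 0.50), and Zfp292, a zinc finger gene, was at 118, 109, 92.96, 132 and 132 CPM against 81.3, 77.4 and 88.6 CPM (0.53 ± 0.27).

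Widely used hypoxia markers within the list were less even. Car9, the carbonic anhydrase used as a stain for tumor hypoxia, was at 5.42, 4.12, 6.55, 25.9 and 1.32 CPM on the high side and 2.11, 1.89 and 1.26 CPM on the low side, so that library 6 overlapped the low side while library 5 was far above all others. Angptl4, a lipase inhibitor, was at 6.37, 4.46, 6.55, 23.05 and 6.34 CPM against 11.6, 3.61 and 3.18 CPM, with library 3 second highest. Some members went the other way. Lox and Plod2, which crosslink and hydroxylate collagen, stood highest in libraries 4a and 4b, with Lox at 549.5 and 521 CPM there against 158, 140.1, 135, 376 and 150.3 CPM in the high-score libraries, although library 3 was the lowest at 54.9 CPM. Stc1, a secreted glycoprotein, was likewise at 81.03 and 143 CPM in 4a and 4b against 11.5, 62.4, 39.2, 63.2 and 15.3 CPM on the high side. Anxa2, which had the highest mean CPM of the 46, was at 349, 373, 389, 302 and 519 CPM and 82.4, 449.8 and 245 CPM. Its difference of 0.75 ± 0.59 was 0.04 ± 0.43 without library 3.

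Promoter sequence was examined for HIF cores, since HIF acts through them. The RefSeq table (GRCm38.p6) gives windows from 250 bases before to 50 bases after each start, and 30 of the 46 HIF targets were matched, with 45 windows. The core ACGTG on either strand was present in 51.1% of these windows, in 24.4% of the windows of protein-coding genes tested, and in 19.6% of all 32851 windows. Windows of the genes whose libraries did not overlap held it in 20.7% on the higher side and 17.8% on the lower side, shares that lie below that of all tested protein-coding windows. Counting ACGTG or GCGTG, the shares were 75.6% of HIF target windows, 60.3% of tested protein-coding windows, 57.1% on the higher side and 62.1% on the lower side. ACGTG also lies within the E-box CACGTG when a C precedes it, and 15.6% of the HIF target windows held that E-box against 9.51% of tested protein-coding windows. The windows of the lactate exporter Slc16a3, the glycolytic enzyme Aldoc and the asparagine synthetase Asns are shown as examples, chosen after their letters were seen, of windows that hold cores in genes whose libraries did not overlap, with each core in capitals on the strand of the gene (CACGT and CACGC are the cores read on the other strand):
Slc16a3, chr11:120948817-120949116, plus strand: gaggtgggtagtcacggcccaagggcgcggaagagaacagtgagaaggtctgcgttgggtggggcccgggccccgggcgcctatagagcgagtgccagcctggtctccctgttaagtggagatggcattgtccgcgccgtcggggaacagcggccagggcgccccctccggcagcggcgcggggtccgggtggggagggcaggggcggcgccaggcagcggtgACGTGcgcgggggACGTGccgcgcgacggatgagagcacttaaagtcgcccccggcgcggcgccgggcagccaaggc
Aldoc, chr11:78322823-78323122, plus strand: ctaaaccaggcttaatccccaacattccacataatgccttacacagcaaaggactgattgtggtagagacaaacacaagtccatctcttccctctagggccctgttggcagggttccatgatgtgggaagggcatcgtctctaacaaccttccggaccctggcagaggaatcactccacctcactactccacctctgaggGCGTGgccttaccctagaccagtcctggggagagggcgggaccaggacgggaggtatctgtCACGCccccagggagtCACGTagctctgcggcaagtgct
Asns, chr6:7693160-7693459, minus strand: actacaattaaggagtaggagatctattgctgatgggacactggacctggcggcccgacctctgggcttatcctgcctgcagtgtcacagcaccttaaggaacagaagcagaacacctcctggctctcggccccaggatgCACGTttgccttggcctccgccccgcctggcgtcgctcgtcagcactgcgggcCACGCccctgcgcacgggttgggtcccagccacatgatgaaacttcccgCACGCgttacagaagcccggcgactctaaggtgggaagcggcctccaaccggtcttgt
Slc16a3 carries 2 ACGTG cores, 27 and 14 bases before its start, Aldoc 1 ACGTG and 2 GCGTG, and Asns 1 ACGTG and 2 GCGTG. A window at another start of Aldoc holds 1 GCGTG and no ACGTG, and the window of Zfp292 holds both cores. Separate libraries were also found without either core: the windows of Gbe1, Gys1, Moxd1, C3, Cyp26b1 and Slit3 held neither. A match of letters is a description of the window and no evidence of binding.

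The RNA levels of the HIF factors and their regulators lay on both sides of 0. Of 20 genes on the list 19 passed the filter, and their median log2 fold change was 0.06 (0.16 without library 3). Of the 19, 11 were above 0, against 55.5% of all genes. Free of overlap were 0 of 19, against 1.85% and 1.59% of all genes. Hif1a was at 144, 329, 135, 277 and 168 CPM in the high-score and 154, 167 and 182 CPM in the low-score libraries (0.37 ± 0.45), so that library 3, 4a and 4b all lay between the 2 highest and the 2 lowest high-score libraries. Epas1, the HIF-2 alpha subunit that is abundant in endothelial cells, was at 32.9, 91.2, 26.1, 57.3 and 19.8 CPM against 92.96, 71.1 and 103 CPM (-0.94 ± 0.56). Its 3 lowest values were those of libraries 1, 2R and 6, which also had the lowest mean level of endothelial markers. Arnt was at 63.3, 40.04, 65.8, 69.4 and 48.7 CPM against 28.5, 62.2 and 96.7 CPM (0.15 ± 0.41), and Vhl was nearly level at 27.98, 23.5, 28.5, 20.5 and 31.1 CPM against 27.5, 23.7 and 22.9 CPM (0.06 ± 0.28).

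Egln1, Egln2 and Hif1an had their highest value of the 8 libraries in library 3, whereas Egln3, one of the 13 genes that set the groups, was lowest there. Egln1, the main prolyl hydroxylase, was at 59.1, 49.2, 63.4, 26.6 and 76.8 CPM on the high side and 99.3, 38.03 and 31.5 CPM on the low side, and its difference of -0.28 ± 0.50 became 0.63 ± 0.56 without library 3. Egln2 was at 23.9, 24.4, 26.2, 20.04 and 27.8 CPM against 53.9, 22.9 and 20.2 CPM, a difference that went from -0.61 ± 0.36 to 0.17 ± 0.29. Hif1an was at 25.8, 44.6, 22.7, 25.4 and 24.8 CPM against 60.7, 23.1 and 21.2 CPM, going from -0.52 ± 0.44 to 0.36 ± 0.44. The direction of all 3 was also turned by scaling to library totals alone, and that of Arnt by leaving out library 3. Sart1, a splicing factor that also binds the HIF-1 alpha subunit, was led by library 3 as well, at 129 CPM against 40.7, 25.2, 42.5, 52.9 and 24.6 CPM on the high side.

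Glycolysis beyond the 13 genes stood higher on the high side for most enzymes. Of 14 enzymes 11 had log2 fold changes above 0 (median 0.75), and without library 3 all 14 did (median 0.995), while edgeR called 0 and only Aldoc was free of overlap (1 of 14 against 1.85% of all genes, or 5 of 14 against 6.1% without library 3). The mean log2 CPM of the list was 4.996 to 5.75 in the high-score libraries, with library 5 the lowest, and 5.36, 4.75 and 4.58 in 3, 4a and 4b. Aldoc, the aldolase isoform C, was at 7.32, 7.69, 15.4, 4.61 and 9.34 CPM against 1.58, 3.08 and 2.67 CPM (1.90 ± 0.60, or 1.60 ± 0.72 without library 3). Its value in library 3 is that of 3 counts. Aldoa, which had the highest mean CPM of the list, was at 474, 907, 583, 265 and 775 CPM against 255, 275 and 157 CPM (1.30 ± 0.56), where library 5 lay below 4a. Pkm, the last step of glycolysis, was at 583, 465, 675, 260.02 and 748 CPM against 191, 427 and 331 CPM (0.91 ± 0.55). Eno1, Gapdh, Tpi1 and Pgam1 have many near-identical copies in the genome, so their counts are uncertain, and library 3 held the highest Gapdh value at 39.6 CPM.

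Glycogen and pentose phosphate genes had a smaller median, 0.48 (0.45 without library 3), with 9 of 13 above 0 against 55.5% of all genes. Gys1 alone was free of overlap, 1 of 13 against 1.85% of all genes. Without library 3, 1 was higher and 1 lower throughout, against 6.1% and 6.54%. Gys1, the muscle-type glycogen synthase, was at 51.7, 41.2, 41.6, 24.05 and 50.4 CPM against 10.6, 20.02 and 21.03 CPM (1.41 ± 0.42, or 1.04 ± 0.47 without library 3). Gbe1, the glycogen branching enzyme, also had separate libraries, but it was counted among the HIF targets and not in this list. These single genes do not describe the pathway. Ppp1r3c, which brings a phosphatase to glycogen and is a HIF target, was at 22.2, 53.4, 8.23, 9.92 and 28.5 CPM against 10.04, 5.46 and 2.52 CPM, with libraries 2R and 5 below library 3. Tkt, the transketolase of the pentose phosphate path, was at 154, 369, 369.9, 119 and 116 CPM against 107, 134 and 99.9 CPM (0.99 ± 0.61).

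Nuclear genes of the mitochondrial side leaned higher with library 3 and stood near the median of all genes without it. The 46 nuclear-encoded respiratory chain subunits had a median log2 fold change of 0.30, with 41 of 46 above 0. Without library 3 the median was 0.00, with 24 of 46 above 0. None was free of overlap, against 1.85% and 1.59% of all genes. TCA cycle enzymes had a median of 0.24 with 17 of 21 above 0, and of 0.05 with 13 of 21 above 0 without library 3. Again none was free of overlap. Dlst, a subunit of the 2-oxoglutarate dehydrogenase complex, was at 157, 179.8, 99.1, 162 and 274 CPM against 196, 144 and 156 CPM. Of the 13 mitochondrially encoded genes 7 passed the filter. Their median was -3.40 with library 3 and 1.31 without it, and mt-Co1 ran from 4558 to 22676 CPM on the high side and was 216981 CPM in library 3 against 4736 and 4040.3 in 4a and 4b. Mitophagy and autophagy genes other than Bnip3 had a median of 0.23 (0.15). Optn, a mitophagy receptor, was the 1 of 18 free of overlap, on the lower side, against 1.59% of all genes. It was at 27.3, 32.2, 23.5, 33.1 and 18.8 CPM against 44.9, 38.03 and 46.5 CPM (-0.67 ± 0.29). Without library 3, 2 of 18 were lower throughout against 6.54%.

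The unfolded protein and ATF4 response, which cells raise when amino acids or folding capacity run short and which hypoxia also engages, leaned to the high side. Of 26 genes 24 had log2 fold changes above 0, the median was 0.70 (0.40 without library 3), edgeR called 0, and 3 (Asns, Psat1 and Ddit3, all known ATF4 targets) were free of overlap, against 1.85% of all genes. Without library 3 it was 5 of 26 against 6.1%. The mean log2 CPM of the list was 5.49 in library 1, 6.42 in 2L, 6.31 in 2R, 5.94 in 5 and 6.48 in 6. In 3, 4a and 4b it was 5.09, 5.70 and 5.62, so library 1 lay below 4a and 4b. Asns, asparagine synthetase, was at 42.4, 43.9, 52.1, 47.997 and 83.4 CPM against 23.8, 25.2 and 18.7 CPM (1.22 ± 0.36, or 1.25 ± 0.47 without library 3). Psat1, which makes serine, was at 27.8, 25.5, 28.8, 26.4 and 41.3 CPM against 17.96, 20.02 and 12.2 CPM (0.77 ± 0.30). Ddit3, the stress factor CHOP, was at 15.3, 17.6, 22.3, 14.7 and 17.5 CPM against 11.6, 8.33 and 12.7 CPM (0.71 ± 0.30). The mRNA of Atf4 itself was at 129, 202, 182, 146 and 215 CPM against 142, 132 and 143 CPM (0.34 ± 0.32), with library 1 below all 3 low-score libraries. Trib3, another ATF4 target, was at 5.85, 38.3, 11.7, 14.2 and 11.7 CPM against 6.34, 4.43 and 5.26 CPM, where library 1 alone overlapped. Hsp90b1, a chaperone of the endoplasmic reticulum, had the highest mean CPM of the list. It was at 1278, 1977, 4199, 1598 and 5253 CPM against 602, 3677 and 2835 CPM, and its difference of 0.53 ± 0.91 was -0.23 ± 0.95 without library 3.

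**Figure D3:**
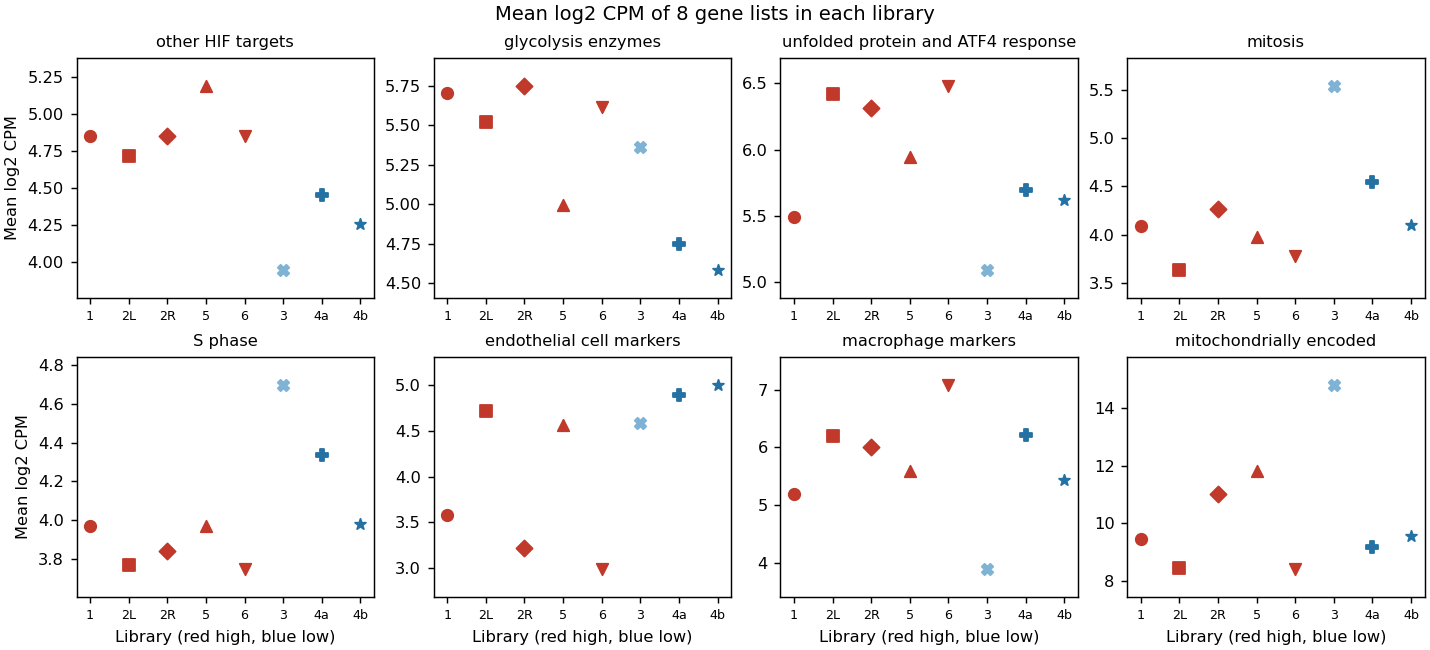
Mean log2 CPM (y axis, a separate range in each panel) of 8 gene lists in each library (x axis), red for the 5 high-score libraries and blue for the 3 low-score ones, library 3 in pale blue. The other HIF targets lie at 4.72 or above in red and 4.45 or below in blue, the mitosis panel peaks in library 3 at 5.54, and the endothelial panel has its 3 lowest values in libraries 6, 2R and 1.

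Vessel genes did not all lean one way. Of 17 endothelial markers 14 had log2 fold changes below 0, the median was -0.75 (-0.95 without library 3, with 15 of 17 below 0), with library totals alone the median was -0.44, edgeR called 0, and Sox17 and Plvap were lower in all 5 high-score libraries (2 of 17 against 1.59% of all genes, or 5 of 17 against 6.54% without library 3). The mean log2 CPM of the markers was 3.58 in library 1, 4.72 in 2L, 3.22 in 2R, 4.56 in 5 and 2.99 in 6, against 4.59, 4.90 and 5.01 in 3, 4a and 4b, so libraries 2L and 5 were close to the low side. Sox17, a transcription factor of arterial endothelium, was at 1.46, 2.27, 1.37, 4.01 and 0.905 CPM against 13.2, 4.23 and 7.997 CPM (-2.20 ± 0.66, or -1.47 ± 0.81 without library 3). Plvap, which forms the diaphragms of fenestrated vessels, was at 20.1, 28.3, 12.5, 29.2 and 8.64 CPM against 72.4, 36.3 and 35.2 CPM (-1.44 ± 0.51, or -0.86 without library 3). Pecam1, the adhesion molecule CD31, was at 34.3, 121, 43.3, 93.99 and 29.5 CPM against 67.1, 141 and 163 CPM (-0.75 ± 0.62). Dll4, the Notch ligand of growing vessel tips, was also lower throughout, at 10.2, 21.7, 7.16, 8.92 and 3.62 CPM against 24.3, 22.9 and 29.6 CPM (-1.26 ± 0.58). Rasip1, a regulator of endothelial tube formation that is among the 12 leading lower genes, was at 6.89, 10.1, 3.81, 11.3 and 4.81 CPM against 52.3, 14.9 and 19.7 CPM (-2.20 ± 0.55, or -1.16 ± 0.59).

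Of the 21 VEGF signaling and angiogenesis genes 13 were above 0, against 55.5% of all genes (median 0.39, or 0.40 without library 3). Angpt1, the ligand that stabilizes vessels through the receptor Tek, was the 1 member higher throughout. It was at 4.74, 11.2, 5.33, 6.61 and 4.61 CPM against 1.06, 2.83 and 1.999 CPM (1.75 ± 0.61, or 1.37 without library 3). Its value in library 3 was under the 1.58 CPM that 3 counts are worth there. Dll4, given above, was the 1 member lower throughout. Each is 1 of 21, against 1.85% and 1.59% of all genes. Without library 3, 2 were higher and 1 lower, against 6.1% and 6.54%. Kdr, the main VEGF receptor, overlapped widely, at 209, 152, 1399.9, 113 and 843 CPM against 88.7, 497 and 488 CPM, and its peaks were in 2R and 6, the libraries with the lowest mean log2 CPM of endothelial markers. Efnb2, an ephrin of arteries, was at 473 CPM in library 3 and at 28.6 and 43.8 CPM in 4a and 4b, against 36.7, 41.7, 42.5, 39.2 and 6.99 CPM on the high side. Its difference of -2.92 ± 0.89 was -0.02 ± 0.85 without library 3. Whether the lower endothelial markers reflect fewer vessels was not tested.

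Matrix genes changed the sign of their median with library 3, which held their lowest summed level. Collagen modification enzymes had a median log2 fold change of 0.46 with library 3 and -0.23 without it (12 of 18 below 0), and extracellular matrix genes 0.23 and -0.43 (18 of 25 below 0). Without library 3, 6 matrix genes and 3 collagen modification genes were free of overlap on the lower side, 6 of 25 and 3 of 18 against 6.54% of all genes. Col1a1, a chain of type I collagen, was at 1764, 695, 2543, 3560.1 and 425 CPM in the high-score libraries, 456 CPM in 3 and 4760.4 and 7167 CPM in 4a and 4b. Vcan, the proteoglycan versican, was the exception that was higher throughout, at 553, 577, 239, 321 and 258 CPM against 113, 219 and 207 CPM (1.25 ± 0.54, or 0.87 ± 0.67). Fibroblast markers had 10 of 12 above 0 and a median of 0.90, which was smaller but still above 0 without library 3 (0.32, with 6 of 12 above 0). Gsn and Clec3b were higher throughout (2 of 12 against 1.85% of all genes, and again 2 against 6.1% without library 3). For Clec3b the margin was narrow and near the floor. It was at 0.603, 0.62, 0.914, 14.03 and 2.22 CPM against 0.528, 0.533 and 0.592 CPM, where 1 count is 0.528 CPM in library 3. Gsn, the actin-severing protein gelsolin, was at 428, 465, 259, 264 and 457 CPM against 58.1, 234 and 225 CPM. Pi16, the fibroblast marker of highest mean CPM, was highest in 4a at 3815 CPM.

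Cell division genes stood lower in the high-score libraries. All 28 mitosis genes had log2 fold changes below 0 (median -1.03), 20 of 28 had an unadjusted p under 0.05 against 4.71% of all genes, and edgeR called 0. In every high-score library 9 of 28 were lower, against 1.59% of all genes (Kif20a, Kif11, Top2a, Ndc80, Ect2, Mki67, Kif23, Anln and Cenpe). Sizes were smaller without library 3: 26 of 28 were below 0, the median was -0.43, 2 had an unadjusted p under 0.05 against 0.667% of all genes, and again 9 were free of overlap against 6.54%. The mean log2 CPM of the list was 3.63 to 4.27 in the high-score libraries and 5.54, 4.54 and 4.10 in libraries 3, 4a and 4b, so 4b lay within the range of the high side. For S phase genes 24 of 27 were below 0, the median was -0.58 (-0.37 without library 3), and 5 (Uhrf1, Pola1, Pole, Mcm4 and Rrm1) were free of overlap against 1.59% of all genes, or 6 against 6.54% without library 3. With library totals alone, where the median of all genes was 0.41, the mitosis median was -0.39 and the S phase median -0.08.

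Mki67, the proliferation marker Ki-67, was at 127, 116, 144, 128 and 106 CPM in the high-score libraries and 393, 168 and 145 CPM in 3, 4a and 4b (-1.15 ± 0.37, or -0.36 ± 0.29 without library 3). The gap between the highest high-score library, 2R, and 4b was narrow. Top2a, the topoisomerase that untangles chromosomes, was at 112, 98.3, 113, 106 and 113 CPM against 184, 165 and 136 CPM (-0.64 ± 0.25, or -0.51 ± 0.26). Rrm1, a subunit of the enzyme that makes deoxynucleotides, did not rest on library 3, at 60.5, 54.05, 51.7, 59.3 and 62.9 CPM against 72.4, 89.6 and 77.7 CPM (-0.45 ± 0.23, or -0.56 ± 0.24), and its partner Rrm2 was at 37.8, 29.5, 30.5, 80.1 and 18.9 CPM against 38.03, 97.2 and 92.6 CPM, where library 5 overlapped. Of the 12 genes that lead the lower side, Dlgap5, Cenpe, Kif11, Sgo2a and Racgap1 act in mitosis. Dlgap5, a spindle protein, was at 9.64, 8.19, 9.30, 9.52 and 10.7 CPM against 45.4, 19.2 and 14.4 CPM (-1.71 ± 0.37, or -0.88 ± 0.29). Kif11, the spindle motor Eg5, was at 31.1, 25.8, 31.9, 30.9 and 25.1 CPM against 87.2, 48.3 and 44.5 CPM (-1.20 ± 0.29, or -0.69 ± 0.26). Racgap1, needed to cleave the cell, was at 26.3, 34.6, 28.2, 32.2 and 21.4 CPM against 68.1, 58.8 and 46.1 CPM (-1.09 ± 0.27, or -0.92 ± 0.31). Sgo2a, which guards centromere cohesion, differed by -1.24 ± 0.30 (-0.73 ± 0.28), and Ppp1cc, a catalytic subunit of protein phosphatase 1, by -2.03 ± 0.50 (-0.92 ± 0.49).

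Cenpe (chr3:135212537-135273611), a kinetochore motor, was far highest in library 3. It was at 25.6, 18.3, 31.5, 40.2 and 20.7 CPM in the high-score libraries, 309.5 CPM in library 3 and 41.9 and 42.9 CPM in 4a and 4b, so that its difference of -2.69 ± 0.63 was -0.63 ± 0.44 without library 3, with library 5 only just below 4a. Its promoter window is shown because it holds the full cyclic AMP response element TGACGTCA, the site that Atf1 and other CREB family factors recognize, here in capitals 34 bases before the start together with 1 GCGTG core further upstream:
Cenpe, chr3:135212313-135212612, plus strand: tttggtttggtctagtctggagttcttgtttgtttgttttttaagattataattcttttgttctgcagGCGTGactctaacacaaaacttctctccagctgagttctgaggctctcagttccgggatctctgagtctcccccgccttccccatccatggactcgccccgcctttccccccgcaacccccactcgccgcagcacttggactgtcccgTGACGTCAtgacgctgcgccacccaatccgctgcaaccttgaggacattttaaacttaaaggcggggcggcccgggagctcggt
The element was found in 8% of the mitosis gene windows (2 of 25), in 2.88% of tested protein-coding windows and in 1.79% of all windows, too few to compare. The 22 CREB and ATF target genes that passed the filter had a median log2 fold change of -0.03 (0.14 without library 3, and 0.28 with library totals alone), with none free of overlap.

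Other leading lower genes were not tied to division. Irx3 (chr8:91798525-91802067), a homeobox transcription factor, was the leading lower gene in which library 3 was not the highest of the 8. It was at 12.6, 14.2, 18.1, 16.6 and 10.9 CPM on the high side and 31.2, 39.4 and 37.1 CPM on the low side, with library 3 the lowest of the low side, and its log2 fold change was -1.27 ± 0.29 (-1.41 ± 0.32 without library 3). Dclk2, a microtubule-associated kinase of neurons, was at 5.51, 3.92, 5.64, 6.91 and 1.93 CPM against 68.7, 7.92 and 12.7 CPM (-3.02 ± 0.70, or -1.01 ± 0.65). Lrp8, the receptor for reelin, was at 7.92, 11.04, 7.92, 11.6 and 4.16 CPM against 63.9, 14.4 and 18.7 CPM (-2.21 ± 0.55, or -0.90 ± 0.53). Tbc1d31 was at 20.5, 17.4, 14.9, 24.4 and 23.5 CPM against 55.99, 42.8 and 37.02 CPM (-1.26 ± 0.29, or -1.01 ± 0.32), and Fam160b1 differed by -1.74 ± 0.44 (-0.43 ± 0.23). In 11 of these 12 genes library 3 was the highest of the 8.

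**Figure D4:**
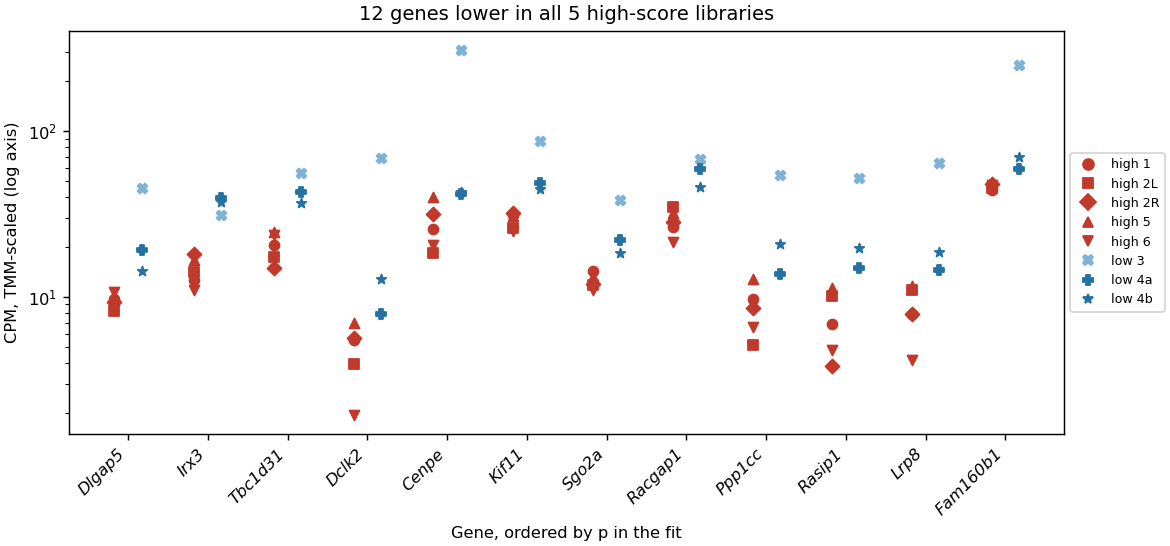
CPM on a log axis (y) of the 12 genes that lead the lower side (x, ordered by p), 1 point per library, red for the 5 high-score and blue for the 3 low-score libraries. All red points lie below all blue points, as the choice requires; library 3, in pale blue, is the highest point for every gene except Irx3.

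Of the lists for the tumor lineage, 1 of 14 neuroendocrine genes (Ret) was lower throughout, against 1.59% of all genes. Among melanocytic genes 1 of 7 (Ednrb) was higher throughout, against 1.85%. Such single genes say nothing about their lists. Ret, the receptor of the GDNF family that is active in neural crest, was lower in every high-score library, at 82.1, 113, 62.03, 121 and 75.04 CPM against 155, 197 and 187 CPM (-0.94 ± 0.33, or -1.09 ± 0.40 without library 3). Ednrb, the endothelin receptor that melanoblasts need, was higher in every one, at 21.1, 61.8, 357, 48.9 and 49.3 CPM against 10.6, 10.5 and 4.89 CPM (3.51 ± 1.27), with a peak in 2R. Mitf, the master regulator of melanocytes, was level outside library 3, at 29.4, 32.8, 36.1, 34.6 and 41.6 CPM against 129, 39.3 and 35.8 CPM (-1.25 ± 0.42, or -0.12 ± 0.28). The pigment genes Tyr, Tyrp1 and Mlana had 0 counts in all 8 libraries, which allows up to 1.58 CPM in library 3 and up to 0.457 CPM in the others. These limits cover sampling only: mt-Co2, mt-Atp6, mt-Nd3, mt-Nd4l and mt-Atp8 were also at 0 counts in all 8 libraries, although mt-Co1 was at 4040.3 CPM or more in each, so a 0 in this table need not mean that the RNA was absent. Only 7 of 12 melanocytic genes passed the filter (median 0.39, or 0.83 without library 3). Neuroendocrine genes, of which 14 of 16 passed, had a median of 1.32 (1.63) and were highest in library 1, with Pcsk1, a prohormone convertase, at 581, 262, 169, 99.2 and 44.1 CPM against 39.1, 142 and 303 CPM. Schwann and neural crest markers had a median of 0.35 (0.94) and none free of overlap, with Pmp22, a myelin protein, at 139, 223, 414, 199.8 and 253 CPM against 135, 216 and 248 CPM.

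Markers of admixed tissue peaked in single libraries on either side. Skeletal muscle markers summed to 62.7 to 21478 CPM on the high side, where library 2L held the top, and to 6796, 183 and 75.5 CPM in 3, 4a and 4b. Red cell markers summed to 17.2 to 14153 CPM on the high side, with library 5 at the top, and to 154, 49.8 and 43.2 CPM on the low side. Keratinocyte markers were highest in 2L, at 986 CPM, and Krt5, a basal keratin, reached 192 CPM in library 3, while the highest value elsewhere was 1.31 CPM. T and NK cell markers summed to 13 to 112 CPM on the high side and 112, 22.4 and 18.4 CPM on the low side. Fat cell markers peaked in library 5 at 234 CPM, B and plasma cell markers in 2R at 654 CPM, and neutrophil and mast cell markers in 4b at 54.3 CPM. Interferon response genes had a median log2 fold change of 0.20 that was -0.32 without library 3. Ribosomal protein genes had a median of -0.27 that was 0.00 without library 3 and 0.23 with library totals alone, with Rps19 and Rps7 lower throughout (2 of 38 against 1.59% of all genes, or 4 of 38 against 6.54% without library 3), and the nuclear and structural noncoding RNA list went from -0.59 to 0.06 without library 3. The part of these other cells in the gene results was not tested.

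**Figure D5:**
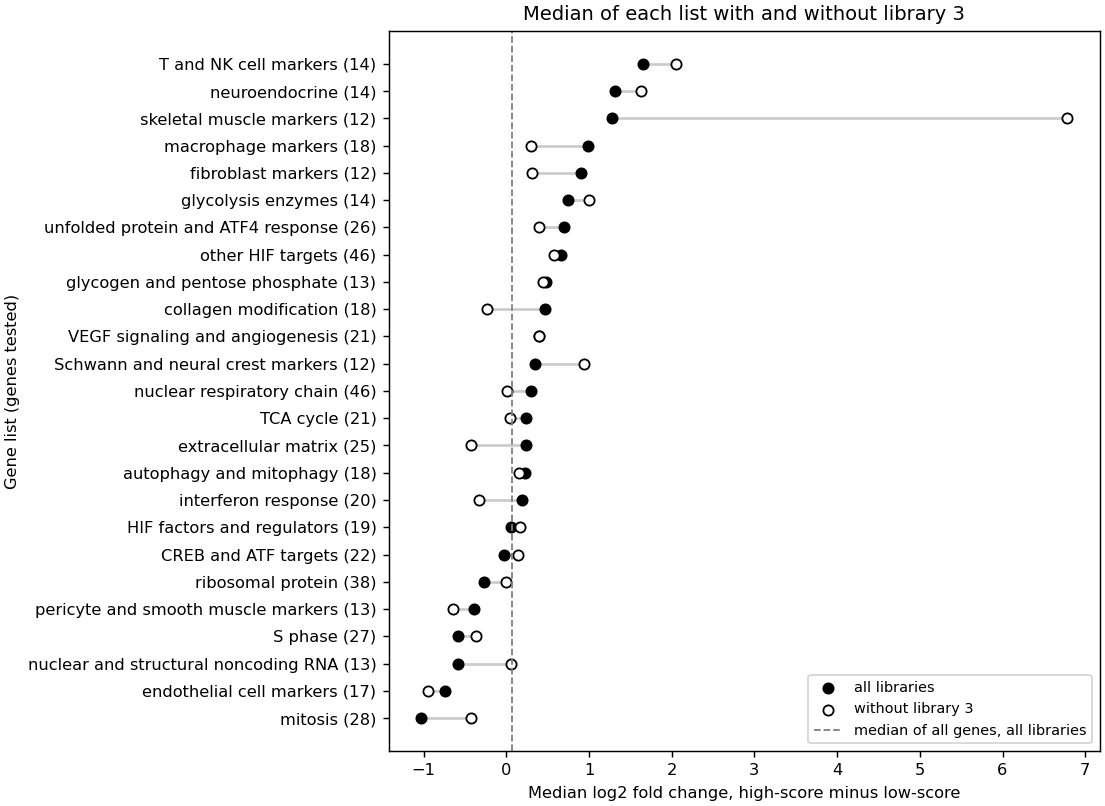
Median log2 fold change (x axis, high-score minus low-score) of each gene list with at least 10 tested genes (y axis, number tested in parentheses), filled circles with all libraries and open circles without library 3, and the dashed line marking the median of all genes at 0.07. The other HIF targets and glycolysis stay above the line in both. So do the glycogen, VEGF, unfolded protein, autophagy, neuroendocrine, fibroblast, macrophage, T and NK cell, skeletal muscle and Schwann lists. Skeletal muscle, T and NK cell and neuroendocrine lists lie furthest above it. Mitosis, S phase and endothelial markers are among those below it in both. Collagen modification, extracellular matrix, interferon response, nuclear respiratory chain, TCA cycle, CREB and ATF targets and HIF factors and regulators change sides.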

How the data were processed

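RNA of 8 tumor samples was sequenced after ribosomal RNA depletion, per the labels. Raw counts per gene, as the authors deposited them, cover 49671 Ensembl identifiers in 1 table. The submitters' processing notes list RSEM, featureCounts, STAR 2.7.5a and cutadapt, and the build mm10. Which of them made the counts, and whether strand was used, is not given in the sources used here, so reads of genes that overlap, antisense pairs included, may be mixed. Symbols come from GENCODE M21 of that build, for 49412 identifiers. The 259 without a name held at most 0.0215% of a library. Coordinates are 1-based.

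Counts were analysed with edgeR 4.0.16 in R 4.3.3. Genes with a mean of at least 1 CPM over the 8 libraries were kept. TMM scaling factors lay between 0.394 (library 3) and 1.33 (4a). The counts of 4a and 4b were added, and the quasi-likelihood test (robust fit) compared 5 libraries with 2, two-sided, with Benjamini-Hochberg adjustment over all genes kept. The SE is the log2 fold change divided by the square root of its F statistic. CPM values are per library and do not correct for gene length, so levels are compared between libraries and not between genes. Values on the log2 scale include a prior count of 2. One count is worth 0.0385 CPM in library 2L and 0.528 CPM in library 3, and 0 counts allow up to 3 counts. Such limits cover counting error only, since reads carry no molecular identifiers. The fit was also run on simulated data with known changes, and no result given here rests on that run.

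The groups, gene lists and members were chosen with earlier results of these data known, and the 13 genes that set the groups were in the fit and left out of every count. Because the grouping follows measured values, a p-value tells how far a gene follows that division and not the effect of a treatment. Named genes were, first, the 12 per direction of smallest p among protein-coding genes with a mean of at least 5 CPM, non-overlapping libraries and the same direction without library 3, and second, of each list, the gene of smallest p and that of highest mean. Hif1a, Epas1, Arnt, Vhl, Egln1, Egln2 and Hif1an were added. One named gene is not reported here. Any further gene was named after its values were seen. Alternatives were other scalings (DESeq2 size factors, library totals, totals without mitochondrial and abundant noncoding RNA), other filters, DESeq2 1.42.0, limma 3.58.1 with the title number as a random effect, 8 libraries kept apart, 2L and 2R added together, and leaving out each library. Chosen after seeing the data was the count of non-overlapping genes with library 3 alone on the low side.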

Additional observations from a re-analysis of the deposited data

Results flagged for a closer look

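On the log2 CPM scale, 2 of the 87 named genes had 1 high-score library far from the other 4, where chance alone gives about 1 in 20. On the CPM scale, tried after seeing the data, 15 of the 87 did, Ednrb, Hbb-bs, Ttn and Ighm among them. Hif1an, the asparaginyl hydroxylase that limits HIF activity, was at 44.6 CPM in library 2L against 22.7 to 25.8 CPM in libraries 1, 2R, 5 and 6. Efnb2, an ephrin of arterial vessels, was at 6.99 CPM in library 6 against 36.7 to 42.5 CPM in libraries 1, 2L, 2R and 5.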

How the results depend on the processing

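Across all alternatives run with edgeR or limma on both title numbers of the low side, 0 genes were called in either direction. DESeq2 called 6 higher and 15 lower, and library 3 alone on the low side, a lone library assumed to vary like the others, gave 32 higher and 460 lower. The genes with non-overlapping values, 281 higher and 242 lower, became 236 and 104 with library totals alone and 4813 and 4363 with library 3 alone as the low side. Leaving out 1 library at a time gave 360 to 933 higher and 311 to 1000 lower, since fewer libraries have to be separated: 444 and 345 without 1, 405 and 382 without 2L, 360 and 311 without 2R, 557 and 473 without 5, 462 and 316 without 6, 933 and 1000 without 3, 890 and 717 without 4a, and 410 and 450 without 4b. None of the 24 leading genes changed direction under any alternative run, while 21 of the 87 named genes did under at least 1. The 24 were chosen for non-overlapping libraries and the same direction without library 3. They therefore had little room to turn, and their constancy is no test of them. The log2 fold changes that turned were, with the 8 libraries kept apart, Arnt -0.13, Ttn 0.50; with limma, Egln1 0.077, Pi16 0.98, Dlst -0.089, Ighm -0.11; with library totals alone, Egln2 0.15, Hif1an 0.32, Egln1 0.54, Pde4d 0.14, Rpl4 0.25, Ttn 1.66, Ndufb7 0.038; with a minimum mean of 5 CPM, Dlst -0.018; with no filter, Ttn 0.10; and with library 3 alone as the low side, Vhl -0.096, Pi16 2.94, Bst2 0.53, Dlst -0.20. Leaving out 1 library gave these ranges of log2 fold change for genes that turned: Arnt -0.37 to 0.33, Atp5b -0.044 to 0.58, Dlst -0.22 to 0.24, Egln1 -0.46 to 0.63, Egln2 -0.69 to 0.17, Gm26917 -3.55 to 1.27, Hif1an -0.75 to 0.36, Hsp90b1 -0.23 to 0.73, Il2rb -2.89 to 0.28, P4hb -0.011 to 1.06, Rpl4 -0.53 to 0.14, Sart1 -1.28 to 0.16, Ttn -5.99 to 7.07, Vhl -0.029 to 0.18, mt-Co1 -3.69 to 1.35, mt-Nd4 -4.89 to 1.46. Apart from what each alternative's construction shows, the cause was not tested. Counting limits are widest in library 3, the shallowest, where 3 counts are 1.58 CPM. No paired analysis was possible because the 2 sides share no replicate number.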

Other observations

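Among genes with separate libraries, some lie close together in the genome. These were picked after their values were seen, and nothing about them was tested. Lgals3 (chr14:47367751-47386160, plus strand) and Dlgap5 (chr14:47387779-47418407, minus strand) end next to each other and lean opposite ways, with log2 fold changes of 1.59 ± 0.46 and -1.71 ± 0.37. The homeobox gene Irx5, of the same Iroquois family as Irx3, was also lower in every high-score library, at 3.62, 5.08, 8.38, 5.21 and 5.43 CPM in libraries 1, 2L, 2R, 5 and 6 against 24.3, 11.4 and 9.33 CPM in 3, 4a and 4b (-1.64 ± 0.44, or -0.94 without library 3). Moxd1 and Arg1, which both lead the higher side, lie on the same stretch of chromosome 10, at chr10:24223517-24302790 and chr10:24915221-24927484 (mm10).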
